A study of Homo sapiens with 2 samples.

Results

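Peaks of APC chromatin immunoprecipitation that take their name from a small nucleolar RNA (snoRNA) or small Cajal body RNA (scaRNA) gene are described here. They were chosen by name alone, as every peak whose named gene starts with SNORD, SNORA or SCARNA, at any distance. The choice gave 206 of 44771 peaks (0.460%), which name 109 genes on 22 chromosomes and cover 483.564 kb. Each peak names 1 gene, that of the nearest annotated transcription start site (TSS). The source was HCT-116, an established human colon carcinoma line with the genotype APC wild-type, CTNNB1{delta}Ser45, a change that makes β-catenin resist degradation. The study holds 1 anti-APC library, precipitated with a polyclonal antibody to the C terminus of this tumour suppressor of the WNT pathway, and 1 library of pre-cleared input from the same untreated cells. No library from cells that lack APC was analysed here. There were no replicates, so no difference was tested, and the intervals below are 95% intervals that cover counting error only. The list gives no read counts, so the depth is unknown, and the length of a peak is the only measure of its size.

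SnoRNAs are short RNAs of the nucleolus that guide chemical modification of ribosomal RNA. Box C/D snoRNAs (SNORD genes) guide methylation of the ribose, box H/ACA snoRNAs (SNORA genes) guide pseudouridylation, and scaRNAs (SCARNA genes) guide both kinds of modification of spliceosomal RNAs in Cajal bodies. In vertebrates most of them are cut out of introns of a host gene, often a gene for a ribosomal protein, a translation factor or a non-coding RNA, so that the host's promoter drives them. Many host promoters start transcription at a cytosine followed by a run of pyrimidines, the terminal oligopyrimidine start known from ribosomal protein genes.

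Because most members have no promoter of their own, the sequences shown are those of host genes. They are 7 non-coding hosts and RPL3, a ribosomal protein of the large subunit, chosen because their members or start peaks recur in the results. All come from RefSeq on GRCh38.p14, 5′ to 3′ on the strand of the gene, with 60 bases before the annotated start and, for non-coding hosts, 20 bases from it. Capitals mark CTTT beginning within 2 bases of the first transcribed base and TATANA beginning 20 to 40 bases before it. Their coordinates are those of GRCh38.p14 and differ from the hg19 positions of the peaks.
ZFAS1, chr20:49278582-49278661, plus strand: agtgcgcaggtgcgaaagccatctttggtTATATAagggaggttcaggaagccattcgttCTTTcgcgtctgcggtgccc
SNHG5, chr6:85678714-85678793, minus strand: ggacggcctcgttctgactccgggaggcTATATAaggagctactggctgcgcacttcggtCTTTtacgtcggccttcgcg
SNHG12, chr1:28581854-28581933, minus strand: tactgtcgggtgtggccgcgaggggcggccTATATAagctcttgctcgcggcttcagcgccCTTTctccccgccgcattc
SNHG32, chr6:31834856-31834935, plus strand: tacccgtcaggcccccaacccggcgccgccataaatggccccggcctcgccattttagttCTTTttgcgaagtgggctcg
SNHG7, chr9:136728165-136728244, minus strand: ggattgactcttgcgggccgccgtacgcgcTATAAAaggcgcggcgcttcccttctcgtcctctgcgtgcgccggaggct
GAS5, chr1:173869026-173869105, minus strand: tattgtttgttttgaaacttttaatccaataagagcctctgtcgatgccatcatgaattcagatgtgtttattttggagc
EPB41L4A-AS1, chr5:112160466-112160545, plus strand: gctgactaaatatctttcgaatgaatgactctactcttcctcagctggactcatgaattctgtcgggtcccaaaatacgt
RPL3, chr22:39319624-39319683, minus strand, before the start only: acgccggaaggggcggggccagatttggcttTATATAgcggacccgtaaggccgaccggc

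ZFAS1, SNHG5 and SNHG12 hold both motifs, SNHG32 holds CTTT alone and SNHG7 holds TATANA alone. GAS5 and EPB41L4A-AS1 hold neither at the start that RefSeq gives on GRCh38.p14. The RefSeq starts were not matched to the hg19 starts from which the peak distances were measured. A window can therefore belong to another start of the same gene, and a motif missing from it can be present at the start used for the peaks. Over the 80 of 99 hosts found in the promoter table, read on the strand of the gene, CTTT at the start was present in 4 of 15 non-coding and 18 of 65 protein-coding hosts (27.7%). It was present in 3.83% of all 27305 genes of that table. Among the protein-coding hosts, 11 of 15 ribosomal protein hosts held it, beside 33 of 69 ribosomal protein genes of the table (47.8%). TATANA at its position was found in 4 of 15 non-coding and 3 of 65 protein-coding hosts, beside 4.34% of all genes. CACGTG, a palindrome that reads the same on both strands and the core of the site of MYC and its relatives, was found anywhere in the window of 250 bases before to 50 after the start in 2 of 15 non-coding and 9 of 65 protein-coding hosts, beside 8.77% of all genes. The windows searched for CTTT and TATANA do not overlap, and CACGTG was counted wherever it lay, so that it can share bases with TATANA. These matches describe letters in a window and are not binding sites.

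The member peaks were somewhat longer than the list as a whole and included a tail of very long calls. Their median length was 1610.5 bp (interval 1456 to 1855), from 416 to 14362 bp, beside 1350 bp over the whole list and 1381 bp for peaks named for protein-coding genes. Peaks named for microRNA genes, which are also small non-coding RNAs, had a median of 1250 bp. The difference from all other peaks was 262.5 bp, but it was 5 bp when the peak nearest to the TSS of each gene was taken, for members and others alike. Calls of 5 kb or more made up 17 members (8.25%, interval 5.22 to 12.8), where 3.08% of the list reached that length. Calls of 10 kb or more made up 7 members (3.40%), beside 0.373% of the list. The longest member ranked 45th among all 44771 peaks.

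Ribosomal protein genes hosted 9 of the 17 members of 5 kb or more. SNORD68, a box C/D snoRNA within RPL13, had the longest peak, 14362 bp at chr16:89622587-89636947. Its centre was 1929 bp downstream of the SNORD68 start and in the 3′ UTR of RPL13, and the peak also covered the start of RPL13, 2702 bp from its centre. SNORD35A, 1 of several snoRNAs within RPL13A, followed with 13310 bp at chr19:49988244-50001552, centred 466 bp past its start. SNORD4B within RPL23A had a peak of 11543 bp at chr17:27045064-27056605, centred 135 bp past its start. These 3 host genes encode proteins of the large ribosomal subunit.

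Long peaks were also seen at RPS2, which encodes a protein of the small subunit, and at RPL3 and RPL10, of the large subunit. SNORA64 within RPS2 had a peak of 8389 bp at chr16:2008787-2017174, centred 127 bp past its start, at a position annotated as the promoter of the neighbouring SNORA10, and it covered the SNORA64 start. SNORD83B within RPL3 had a pair of long peaks, 9742 bp at chr22:39704206-39713946, centred 840 bp past its start, and 6459 bp centred 22523 bp past it in intergenic sequence. SNORA70 within RPL10, on the X chromosome, had 5579 bp centred 748 bp before its start.

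Among non-coding hosts, SNORD65 within SNHG29 had 13090 bp at chr17:16345022-16358110. Its centre lay 7026 bp past the SNORD65 start in an intron of LRRC75A, so this peak did not reach the start, unlike the other 6 of 10 kb or more. SNORA43, also known as SNORA17B, within SNHG7 had 10261 bp at chr9:139614529-139624788, centred 1031 bp past its start and covering it. SNORD52 within SNHG32 had 7062 bp centred 6079 bp past its start, and SNORD1A within SNHG16 had 5109 bp centred 4582 bp past its start. Among the members of 10 kb or more, the protein-coding host that does not encode a ribosomal protein was PHB2, a prohibitin of the inner mitochondrial membrane. This gene holds SCARNA12, whose peak of 11280 bp at chr12:7069774-7081052 was centred 1356 bp past the start. SNORD95, within the ribosome-associated scaffold protein RACK1, had 9543 bp at chr5:180665723-180675264, centred 117 bp before its start. SNORA38B within NOL11, a nucleolar protein of ribosomal RNA transcription, had 5311 bp, centred 25489 bp past its start.

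Of the 17 members of 5 kb or more, 9 have a ribosomal protein host, 4 a non-coding host and 3 another protein-coding host. For 1, named SNORA59B, no host was found under that name, which is discussed below. Of these 17, 11 covered the start of the named gene and 4 were centred in SINE repeats, which are short interspersed elements. Those just above the limit were SNORA59B with 5198 bp and SNORD1A with 5109 bp, and those just below it were SNORD88B with 4862 bp and SNORA80B with 4605 bp.

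**Figure D1:**
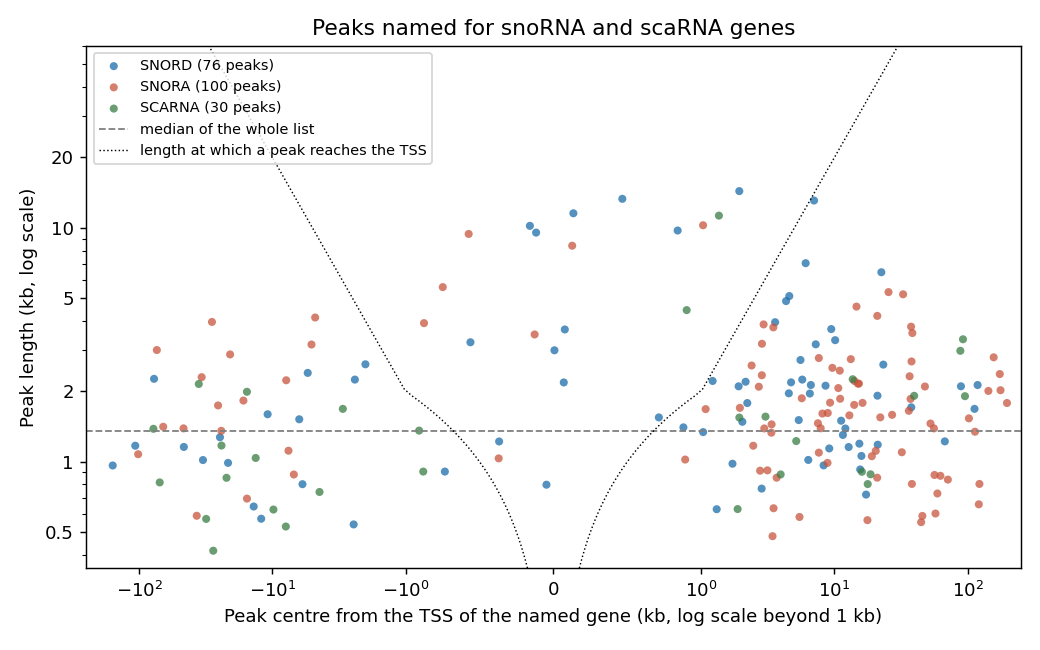
Length of each of the 206 member peaks (kb, log scale) against the distance of its centre from the TSS of the named gene (kb, linear within 1 kb and log scale beyond), coloured by family. Points above the dotted line cover the TSS: 22 members do, among them 11 of the 17 of 5 kb or more, and 147 of the 206 centres lie downstream.

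The share of member peaks centred at the start of the named gene was below that of the list. Their centres lay within 1 kb of that start in 24 members (11.7%, interval 7.96 to 16.7), where 18.1% of the list did. The share was 20.4% for peaks named for protein-coding genes and 5.85% for peaks named for microRNA genes. The order turned at 10 kb: 102 members (49.5%, interval 42.8 to 56.3) were centred within 10 kb, beside 37.6% of the list. The median distance was 10412 bp, beside 18291 bp over the list, 16492.5 bp for protein-coding genes and 24282 bp for microRNA genes. Beyond 100 kb lay 14 members (6.80%), beside 13.2% of the list. The start itself was covered by 22 members (10.7%, interval 7.16 to 15.6), beside 18.7% of the list. Taking only the nearest peak of each gene, 22.0% of members were centred within 1 kb and 20.2% covered the start, beside 45.5% and 47.3% over all genes of the list.

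**Figure D2:**
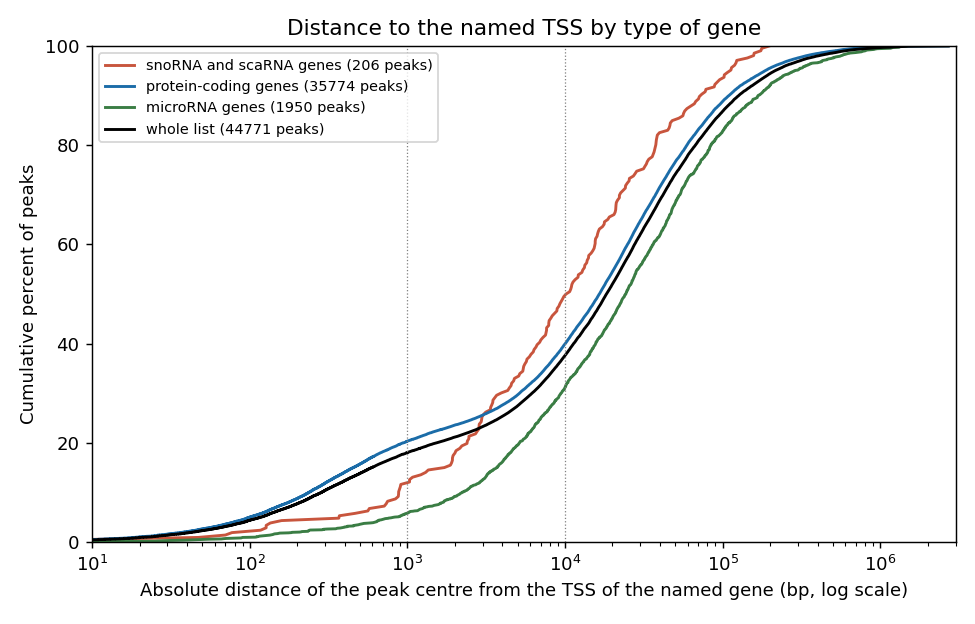
Cumulative percent of peaks by the distance of the centre from the TSS of the named gene (bp, log scale), for snoRNA and scaRNA genes, protein-coding genes, microRNA genes and the whole list. At 1 kb the member curve (11.7%) lies below the whole list (18.1%) and above the microRNA curve (5.85%), and at 10 kb it lies above all of them (49.5%).

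The 24 members centred within 1 kb were long. Their median was 3370.5 bp, beside 2084 bp for all 8098 peaks that close to a start. Of these 24, 8 (33.3%) reached 5 kb, beside 285 of the 8098 (3.52%). They had 13 centres upstream and 11 downstream of the start, and 19 covered the start. All 24 carried a promoter or termination-site label, which among members stands in place of a repeat name, so a SINE centre could not be recorded for them. The closest, named here after their values were seen, were SNORD24 within RPL7A (2995 bp, centred 7 bp past its start) and SNORD80 within GAS5 (797 bp, centred 47 bp before its start). SNORD56 within NOP56 (2182 bp, 70 bp past) and SNORD49B within SNHG29 (3676 bp, 77 bp past) came next. All 4 are box C/D snoRNAs, and all 4 peaks covered the start. The 5 members within 1 kb that did not cover the start included the near peaks of SCARNA7 and SCARNA20.

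Downstream of the named start lay the centres of 147 members (71.4%, interval 64.8 to 77.1), beside 58.9% of the list. A centre between a host start and the RNA within that host can take the name of the host. The naming therefore bears on this share, by an amount that was not tested. The annotation of the centre differed most at the ends of transcripts. Transcription termination sites held 16 members (7.77%, interval 4.84 to 12.2), beside 2.03% of the list, and 3′ UTRs held 6 (2.91%), beside 0.753%. Most of these 16 sites were the end of a snoRNA or scaRNA, such as SNORD4B, SNORD83B and SCARNA2. The rest were ends of longer genes, such as EIF5 and MBD2. A snoRNA is so short that its end lies close to its start, so a termination-site label can fall within 1 kb of the start. Promoter labels went to 17 members (8.25%), beside 11.2% of the list, with a median length of 3241 bp against 2104 bp. Introns held 96 members (46.6%) and intergenic sequence 65 (31.6%), beside 45.6% and 36.1% of the list.

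SINE repeats held the centres of 77 members (37.4%, interval 31.1 to 44.2), beside 38.7% of the list, so the members did not stand apart in this share. Of these 77, 74 were Alu elements. The SINE-centred members were longer than those of the list, with a median of 1387 bp against 889 bp. The detailed annotation named a CpG island for 3 member centres (1.46%), beside 3.84% of the list. Member centres labelled promoter, termination site, exon or UTR carry that label in place of a CpG island or repeat name. Islands and repeats at those centres were therefore not counted.

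The box C/D family was nearest to its starts. The 47 SNORD genes had 76 peaks with a median length of 1744.5 bp (interval 1386 to 2182), of which 14 (18.4%) lay within 1 kb and 48 (63.2%) within 10 kb. The 49 SNORA genes had 100 peaks with a median length of 1688.5 bp (interval 1444 to 2007), of which 7 (7.0%) lay within 1 kb and 41 (41.0%) within 10 kb. The 13 SCARNA genes had 30 peaks with a median length of 1198.5 bp (interval 882 to 1682), of which 3 (10.0%) lay within 1 kb and 13 (43.3%) within 10 kb. The SNORD and SNORA medians differed by 56 bp, with an interval of -621 to 738 bp, and the sign turned when peaks within 500 bp were merged or when peaks beyond 50 kb were left out. Median distances were 6182 bp for SNORD, 15146 bp for SNORA and 14629.5 bp for SCARNA peaks. SINE centres were 32.9% of SNORD, 35.0% of SNORA and 56.7% of SCARNA peaks, the last with an interval of 39.2 to 72.6.

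RefSeq lists 573 genes with these prefixes, and all 109 named genes matched 1 of them, 5 by an older symbol. A peak named 47 of 362 SNORD genes (13.0%), 49 of 182 SNORA genes (26.9%) and 13 of 29 SCARNA genes (44.8%). The low SNORD share sits beside the imprinted clusters, tandem arrays of box C/D snoRNAs on chromosomes 14 and 15 that are expressed from 1 parental allele, mainly in the brain for the array on chromosome 15. Only 2 of their 124 genes (1.61%) were named, against 45 of 238 SNORD genes elsewhere (18.9%). On chromosome 15 the named gene was SNORD115-44, 1 of 83, with a peak of 980 bp centred 1715 bp past its start in an LTR12C repeat. On chromosome 14 it was SNORD114-31, 1 of 41, with a peak of 626 bp centred 1305 bp past its start in an Alu element. A gene packed among its copies can be nearest to a peak over a short stretch only, and its share of named genes was not adjusted for that.

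Each scaRNA was followed in turn. SCARNA2, which is transcribed from its own promoter, had 1 peak of 4449 bp at chr1:109641493-109645940, centred 901 bp past its start and covering it. It was the only named gene among 8 independently transcribed RNAs (12.5%), beside 19.0% of all 573 snoRNA and scaRNA genes, so this small list did not stand apart. No peak named SNORD118, SNORD13 or the 5 SNORD3 genes of the list. SCARNA12, described above, was the other SCARNA member that covered its start.

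The intron-encoded scaRNAs mostly had short peaks away from the start. SCARNA5 within ATG16L1, an autophagy gene, had 627 bp centred 1874 bp past its start, in an exon of the host. SCARNA11 within CHD4, a remodeller of chromatin, had 1544 bp at 1931 bp, and SCARNA22 within NSD2, a histone methyltransferase, had 1558 bp at 3035 bp. SCARNA13 within the non-coding SNHG10 had 882 bp at 3946 bp. SCARNA9 within CEP295, a centriole protein, had 624 bp centred 9823 bp before its start. The last 4 were centred in Alu elements.

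The others had several peaks each. SCARNA7 within KPNA4, a nuclear import receptor, had 1358 bp centred 908 bp before its start, 742 bp centred 4426 bp before it and 802 bp centred 17792 bp past it. SCARNA14 within TIPIN, a replication fork protein, had 1682 bp centred 2957 bp before its start, 1225 bp at 5164 bp past it and 905 bp at 16086 bp past it. SCARNA8 within HAUS6, a spindle protein, had 1037 bp and 1990 bp centred 13352 and 15538 bp before its start. SCARNA3 within COP1, a ubiquitin ligase, had 528, 1172 and 815 bp at 7928, 24134 and 70230 bp before its start. SCARNA18, within TMEM167A, had 1906, 3338 and 2980 bp at 95665, 92427 and 88341 bp past its start, all intergenic. SCARNA20 within USP32, a deubiquitinating enzyme, had the most peaks of any gene name, 9, from 416 to 2252 bp long and from 880 to 78294 bp from its start.

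Grouped by host, long peaks close to the start belonged mostly to ribosomal protein genes. A host was taken as the gene that contains the RNA in RefSeq, and 106 of the 109 genes had 1, for 99 hosts in all. The 21 members within 20 ribosomal protein genes had 30 peaks with a median length of 2199 bp (interval 1220 to 3753). Of these 30 peaks, 10 (33.3%, interval 19.2 to 51.2) were centred within 1 kb of the snoRNA start and 9 reached 5 kb. The 21 members within 20 non-coding hosts had 30 peaks with a median of 2205.5 bp (interval 1402 to 3194), of which 4 (13.3%) lay within 1 kb and 4 reached 5 kb. The 60 members within 55 other protein-coding hosts had 132 peaks with a median of 1458 bp (interval 1301 to 1606), of which 7 (5.30%) lay within 1 kb and 3 reached 5 kb. Median distances were 2611 bp for ribosomal protein hosts, 3765.5 bp for non-coding hosts and 17494 bp for other protein-coding hosts. The ribosomal protein and non-coding host genes are short, and host length was not adjusted for.

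**Figure D3:**
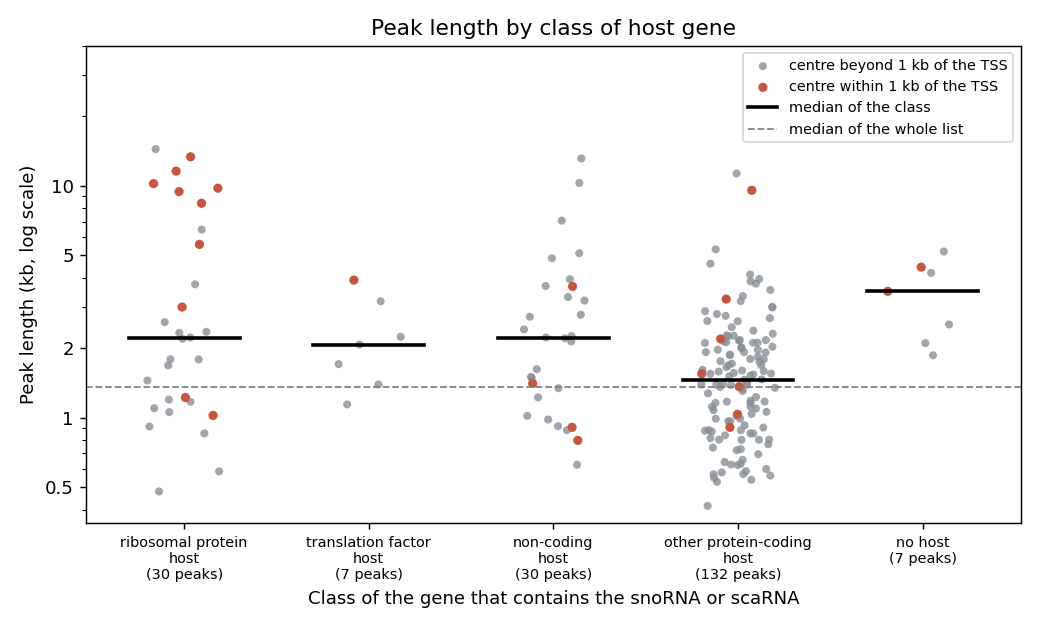
Length of each member peak (kb, log scale) by the class of the gene that contains the RNA, with centres within 1 kb of the TSS in red, the class median as a bar and the median of the whole list (1350 bp) dashed. The ribosomal protein class holds 10 of the 24 peaks within 1 kb and 9 of the 17 of 5 kb or more.

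The 4 members within translation factor genes had 7 peaks with a median of 2064 bp, from 1139 to 3913 bp. SNORA48 within EIF4A1, a helicase of translation initiation, had the longest, 3913 bp centred 875 bp before its start and covering it. SNORA19 within EIF3A, a subunit of an initiation factor complex, had 4 peaks of 2064, 1699, 3170 and 2229 bp. SNORA28 within EIF5 had 1389 bp centred 7886 bp past its start, and SNORD97 within EIF4G2 had 1139 bp at 9144 bp.

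No host was found for SCARNA2, SNORA76C and SNORA59B, with 7 peaks in all. SNORA76C, also known as SNORA50C, had 4 peaks, the nearest of 3500 bp centred 127 bp before its start. SNORA59B had peaks of 4203 and 5198 bp on chromosome 1, whereas RefSeq places it on chromosome 17. The distances of the SNORA59A peaks, also on chromosome 1, imply the same start as those of the SNORA59B peaks. Both names therefore stand for 1 position, which for SNORA59A was read as lying within VPS13D. The counts of genes, of peaks per gene and of genes without a host given here keep the names apart. Without SNORA59A and SNORA59B the median member length was 1590.5 bp and 8.16% of members reached 5 kb.

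Members in the class of other protein-coding hosts had mostly modest peaks. Besides SCARNA12, SNORD95 and SNORA38B, the longest belonged to SNORA80B and SNORA14A. SNORA80B within ODC1, the first enzyme of polyamine synthesis, had 4605 bp centred 14646 bp past its start, with further peaks of 3549 and 2451 bp. SNORA14A within POR, the reductase that serves cytochrome P450 enzymes, had 4136 bp centred 4773 bp before its start and 2157 bp at 15291 bp past it.

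By position, 88 members (42.7%) were centred within their host gene, with a median length of 1263 bp. The 22 (10.7%) centred at the promoter or end of the named RNA itself had a median of 3118 bp. Another gene held 28 centres (13.6%, median 2024 bp), intergenic sequence held 65 (median 1915 bp), and 3 lay in transcripts not found in the RefSeq table used.

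Start peaks were also counted at the hosts themselves. Of the 99 hosts, 74 were named by at least 1 peak, and 60 had their start covered by a peak that carries their name. These were 10 of 20 ribosomal protein hosts, 12 of 20 non-coding hosts, 3 of 4 translation factor hosts and 35 of 55 other protein-coding hosts. Over all 17266 genes that a peak names, the nearest peak covered the start in 47.3%, a share to be set beside the 60 of 74 named hosts. The share over all annotated genes was not counted, and these hosts entered because a peak names an RNA within them. The position of the start on hg19 could be placed for 60 hosts from the distances that their own peaks give. Of those placed, 49 had the start covered by a host-named peak and 3 by a member peak. The 3 were RPL10 by SNORA70, RPL17 by SNORD58B and RPL13 by SNORD68.

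The start peaks of the 49 hosts had a median length of 2403 bp, from 1042 to 6442 bp, and the longest member peak of each of these hosts had a median of 1518 bp. The member peak was longer in 18 of the 49. RPL3 had a start peak of 3242 bp and a SNORD83B peak of 9742 bp, and NOL11 had 1570 bp and a SNORA38B peak of 5311 bp. SNHG16 had 2992 bp and a SNORD1A peak of 5109 bp, and SNHG32 had 6442 bp and a SNORD52 peak of 7062 bp. The order was the other way at GAS5, with 2409 bp at the start and 797 bp at SNORD80, and at RPL12, with 4983 bp at the start and 1170 bp at SNORA65. It was also the other way at RPLP2, with 4720 bp at the start and 2578 bp at SNORA52, and at SNHG12, with 4535 bp at the start and 3949 bp at SNORD99.

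Of the 136 member peaks whose host start was placed, 130 (95.6%) were centred downstream of it. Over the 136 the median was 34494.5 bp, from -347619 to 256400 bp. Those centred upstream were the 6 peaks of SNORD56B, whose host is SIPA1L1. The peak at -347619 bp was centred 158385 bp before the SNORD56B start, so SNORD56B itself lies before the start placed for SIPA1L1. The upstream positions of these 6 peaks therefore rest on which SIPA1L1 start was placed. A peak nearer to the host start carries the name of the host, so the naming itself keeps member centres away from that start. At non-coding hosts with a start peak, member peaks followed farther downstream. The ZFAS1 start peak of 2458 bp was centred 27 bp past the start, and SNORD12 peaks of 1017, 3309 and 1221 bp followed at 8403, 12171 and 69553 bp past it. The SNHG5 start peak of 1576 bp was centred 95 bp before the start, and SNORD50A peaks of 2722 and 1497 bp followed at 6925 and 12597 bp. The GAS5 start peak of 2409 bp was centred 32 bp past the start, and the SNORD80 peak of 797 bp lay at 3037 bp. The EPB41L4A-AS1 start peak of 2238 bp was centred 1 bp before the start, and the SNORA13 peak of 918 bp lay at 4097 bp. Of these member peaks only that of SNORD80 covered the start of its snoRNA. The others were centred from 3138 to 67512 bp past it.

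At SNHG12 the SNORD99 peaks of 1402, 3949 and 2128 bp lay at 3911, 6617 and 9684 bp past the host start, and 30 and 31 bp separated them. The SNHG12 start peak of 4535 bp was centred 210 bp before that start. At SNHG32, whose peak carries the older name C6orf48, the start peak of 6442 bp was centred 1134 bp before the start, and SNORD52 peaks of 2214 and 7062 bp followed at 3377 and 8240 bp. At RPL3 the start peak of 3242 bp was centred 20 bp past the start, and the SNORD83B peaks lay at 6594 and 28277 bp.

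**Figure D4:**
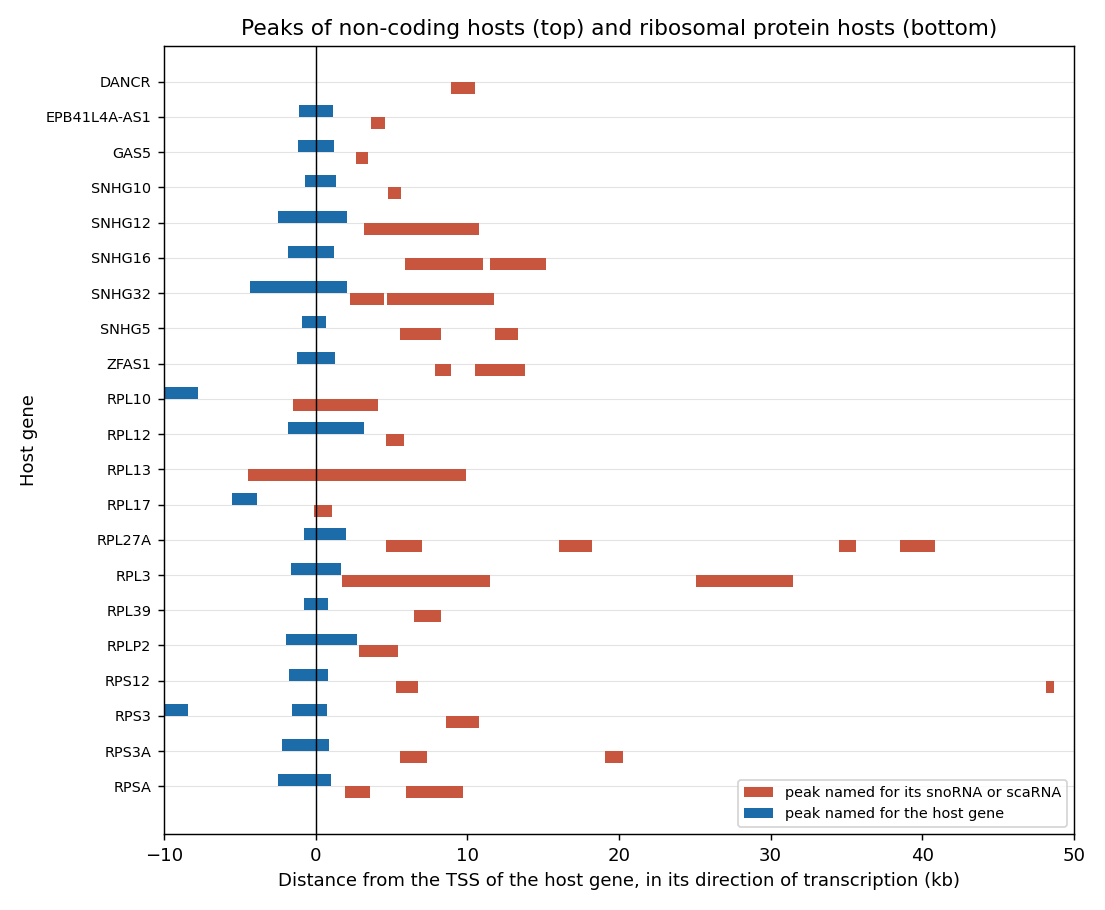
Peaks named for the host gene (blue) and for its snoRNA or scaRNA (red) by distance from the TSS of the host in its direction of transcription (kb), for 9 non-coding and 12 ribosomal protein hosts whose start could be placed, within 10 kb before and 50 kb after it. At RPL10, RPL13 and RPL17 the start is covered by the member peak, and at DANCR by neither.

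Of the members, 35 (16.99%, interval 12.5 to 22.7) had another peak of the list within 500 bp, beside 8.28% of all peaks. In 16 cases both neighbours were members. The gap was 4 bp between the SNORD96A peaks, both centred in TRIM41 next to the host RACK1, 7 bp between 2 of the SNORA59A peaks, 12 bp between SNORD56 and SNORD57 of NOP56, and 284 bp between SNORD49B and SNORD65 of SNHG29. When all peaks within 500 bp were merged, 13.2% of members reached 5 kb, beside 4.17% of the merged list.

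Of the 109 genes, 65 had 1 peak and 44 had more. The 5 genes with 6 or more, all within protein-coding hosts, held 38 peaks (18.4%), of which only 2 lay within 10 kb of the start. Besides SCARNA20 they were SNORA59A within VPS13D and SNORA70B within USP34, with 8 peaks each, SNORA14B within TOMM20 with 7, and SNORD56B within SIPA1L1 with 6. The members farthest from their starts were SNORA14B at 197888 bp, SNORD56B at 158385 bp, SNORA79 at 122871 bp, SNORD17 at 119064 bp and SNORA70B at 113793 bp. The 7 SNORA14B peaks were all intergenic, with a median of 2021 bp, and the 8 SNORA70B peaks were all within introns of USP34, with a median of 873.5 bp.

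The distances of copies are given for families picked after their values were seen. SNORA70 within RPL10 had its peak 748 bp from the start, and the nearest peaks of its copies SNORA70G, SNORA70F, SNORA70D and SNORA70B lay 3490, 6902, 14082 and 16509 bp away. The copies' peaks ran from 551 to 1825 bp, all shorter than the 5579 bp of SNORA70. SNORD56 within NOP56 had its peak 70 bp from the start, and its copy SNORD56B had its nearest 5944 bp away. SNORA16B within PPP2R5A, by contrast, had a peak 370 bp from its start, while no peak named SNORA16A. SNORA76C lay 127 bp from its peak, and SNORA76A within CNOT1 24207 bp. SNORA11B, SNORA11C and SNORA11D had 1 peak each, 22118, 20952 and 71157 bp away. How reads that match several copies were placed is not given in the sources used here, and its part in these values was not tested.

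Read gene by gene, the share of hosts named close to their starts was above that of genes in general, and the share of the small RNAs themselves was below it. Of 257 protein-coding genes that contain a snoRNA or scaRNA in RefSeq, 134 (52.1%, interval 46.0 to 58.2) had a peak named for them within 1 kb, beside 35.0% of all 20056 protein-coding genes. Within 10 kb it was 170 (66.1%, interval 60.2 to 71.7), beside 50.8%. Of the 29 ribosomal protein genes among them, 17 (58.6%) had such a peak within 1 kb and 20 (69.0%) within 10 kb. Of the 573 snoRNA and scaRNA genes, 24 (4.19%) were named within 1 kb and 84 (14.7%) within 10 kb. Peaks at a host start and peaks at its snoRNA compete for the nearest name, so both counts depend on the annotated starts.

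On a list of 17 non-coding host genes, 10 had a peak within 1 kb, beside 2.02% of 18330 lncRNA genes in RefSeq, not all of which need be in the annotation behind the list. They were SNHG3 (2898 bp), SNHG6 (3408 bp), SNHG8 (1371 bp), SNHG10 (2022 bp), SNHG15 (2063 bp) and, with values given above, GAS5, SNHG5, SNHG12, SNHG16 and ZFAS1. The list leaves out some hosts of members, and 12 of the 20 non-coding hosts of members had their start covered. No peak was named for SNHG1, SNHG7, SNHG9, SNHG14 or SNHG20. By comparison, 109 of the 573 snoRNA and scaRNA genes (19.0%) were named at any distance. Of the 8 snoRNAs of SNHG1, SNORD22 alone was named, with 2197 bp centred 2151 bp past its start. Of the 10 snoRNAs of GAS5, SNORD80 alone was named. Of 20 snoRNAs within other SNHG genes or ZFAS1, 8 were named, all within 10 kb and 1 within 1 kb.

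The proteins that assemble and serve these RNAs were often linked at their own starts. Of 22 machinery genes, 14 (63.6%) were named by a peak within 1 kb and 17 (77.3%) within 10 kb, beside 35.0% and 50.8% of protein-coding genes. For box C/D particles, FBL, the methyltransferase, had 2630 bp centred 532 bp past its start, NOP58, a core protein, had 2223 bp centred 133 bp before it, and SNU13, which binds the kink-turn of the RNA, had 2504 bp centred 4 bp before it. NOP56, the partner of NOP58, differed from these, with its nearest peak 17266 bp before its start, while the SNORD56 and SNORD57 peaks lay within NOP56. RRP9 of the machinery list also had its nearest peak far from its start, 18038 bp past it in intergenic sequence. For box H/ACA particles, DKC1, the pseudouridine synthase, had 1815 bp centred 414 bp past its start. Its partners GAR1 (1599 bp at 230 bp past) and NOP10 (1795 bp at 496 bp past) were similar, and NHP2 had its peak 8167 bp past its start.

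Assembly factors were mixed. NUFIP1 had 1708 bp centred 26 bp past its start, NAF1 had 1491 bp at 141 bp past, and SHQ1 had its nearest peak 15127 bp past its start. COIL, which encodes the coilin of Cajal bodies, had 2040 bp centred 708 bp past its start, NOLC1, a chaperone of the nucleolus, had 2413 bp at 297 bp before, and TGS1, a cap methyltransferase, had 1895 bp at 133 bp before. No peak was named for PIH1D1, an assembly factor, or for WRAP53, which carries scaRNAs to Cajal bodies. RUVBL2, an ATPase of assembly, had the longest peak of the machinery list, 6762 bp centred 6828 bp past its start.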

How the data were processed

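Chromatin of HCT-116 cells was crosslinked, sonicated, digested with micrococcal nuclease and precipitated with an anti-APC antibody, per the labels' protocols. MACS2 and hg19 are named in the submitters' processing notes. Not given in the sources used here are the versions, the alignment, the threshold, whether the input served as control, what tool annotated the peaks and how reads that match several places were placed. The deposited table gives coordinates, an annotation, a signed distance in bp from the peak centre to a TSS, and a gene name, per the file headers. In all 44771 rows its score is 2 more than end minus start, so it was used as a length in bp and not as a strength. A longer call can come from depth or from how the caller joins regions.

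The members and the gene lists were chosen with earlier results of these data known. Named genes were those of the 15 longest member peaks, all SCARNA members, up to 5 of each list of independently transcribed, imprinted and SNHG or GAS5 RNAs, up to 5 of each host class, the 5 farthest members, their hosts and the machinery genes. Some members named by it are not reported here. Genes beyond this rule were named after their values were seen: the members closest to a start, the copies, the genes with 6 or more peaks, the close neighbours and the host pairs of the map. Hosts, gene names and strands came from RefSeq on GRCh38.p14, where containment was read within that build only. Among genes with several containing genes the host was set by hand for 9. The strand implied by the peak distances was that of the host in 36 of 37 members that could be compared, the exception being SNORA70G. Shares have 95% Wilson intervals, and medians have exact intervals from order statistics. Peaks are not replicates, so no test was run. Python 3.11.15, numpy 2.4.6, pandas 2.3.3, scipy 1.17.1 and matplotlib 3.10.9 were used, and the interval and distance code was tested on simulated data. Alternatives were a stricter length (the median or upper quartile of the list), merging within 500 bp, the nearest peak of each gene, leaving out repeats, 1 peak per locus of 10 kb, peaks within 50 kb, leaving out SCARNA, other limits of distance and length, geometric means and other comparison peaks.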

Additional observations from a re-analysis of the deposited data

How the results depend on the processing

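No paired analysis was possible because there is 1 anti-APC library and no replicate. Of 100 alternative values, 71 stayed within the interval of the value reported (for the number of genes, within 1.5 times), 27 did not and 2 changed sign; the cause was not tested except where the setting itself fixes it. The share within 1 kb (11.7%) was 21.4% among peaks no shorter than the upper quartile of the list (2135 bp), 22.0% for the nearest peak of each gene, 18.6% without SINE-centred peaks, and 1.94%, 49.5% and 85.0% for limits of 100 bp, 10 kb and 50 kb. The whole list, 18.1% as reported, had 34.8%, 45.5% and 29.2% under the first 3 of these settings and 4.44%, 37.6% and 74.1% under the limits, so the members stayed below it except at 10 and 50 kb. Members within 1 kb carry promoter or termination-site labels in place of a repeat name. Leaving out SINE-centred peaks therefore removed none of them, and the rise to 18.6% follows from the setting. The median length was 2197 bp at the median length or more, 3217.5 bp at the upper quartile or more and 1858 bp without SINE-centred peaks. The difference from other peaks was 63 bp at the median length or more, 5 bp for nearest peaks, 1288 bp for peaks within 1 kb and 1138 bp for promoter peaks. The promoter share was 15.7%, 15.6% and 13.2%, and the share covering the start 25.7%, 20.2% and 16.3%, at the upper quartile, for nearest peaks and without SINE-centred peaks. The list had 22.0%, 28.3% and 18.3%, and 41.0%, 47.3% and 29.7%, under the same settings. The SINE share was 27.1% at the upper quartile, and 0% without them by construction. At the upper quartile 51 genes were left. The share of 5 kb or more was 13.2% at the median length, 13.2% after merging, 24.3% at the upper quartile, 18.9% for 3 kb and 3.40% for 10 kb. The SNORD minus SNORA median was -104 bp after merging and -3 bp within 50 kb. Leaving out SNORA59A and SNORA59B, chosen after seeing the data, moved no value by more than its interval. The unknown depth and the single library limit all values.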
